A study of Mus musculus with 6 samples.

Results

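The STAT transcription factors and Janus kinases were described in RNA-seq of whole testis from 3 WT and 3 Trf2-/- mice, all taken at postnatal day 21. The 9 genes were found by name among the 26743 genes of the deposited count table and comprise 6 STAT genes (Stat2, Stat3, Stat4, Stat5a, Stat5b and Stat6) and 3 Janus kinase genes (Jak1, Jak2 and Tyk2). Jak3 is a Janus kinase outside this list of 9, and its values are given once, after those of the 9 genes. Trf2-/- mice lack the TBP-related factor encoded by Tbpl1, a relative of the TATA-box binding protein. The labels name no treatment and no other allele, and no tissue- or cell-restricted deletion. The libraries hold RNA of all cells of the testis, germ cells and somatic cells together.

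Janus kinases are tyrosine kinases bound to the inner side of cytokine and hormone receptors. When a ligand joins the receptor chains, the kinases phosphorylate each other, the receptor and then a STAT protein, which pairs with another STAT, enters the nucleus and binds the promoters of its target genes. SOCS proteins, which are themselves products of STAT target genes, and phosphatases end the signal. In the testis the receptors, kinases and most STATs are made by somatic as well as germ cells, whereas Stat4, best known from T and NK cells as the effector of Il12 receptors, is also known as a gene of haploid germ cells.

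The mice gave between 21582123 and 29859347 reads counted on genes in WT and between 15187062 and 24530489 in Trf2-/-. Levels are given as CPM, counts scaled to a common TMM-adjusted library size. A gene without a read could still be present at up to 3 counts, which is 0.105 to 0.144 CPM in WT and 0.119 to 0.190 CPM in Trf2-/- mice and covers counting error only. Tbpl1 was checked first and had 8840, 7391 and 6119 reads in WT and 1586, 1500 and 882 in Trf2-/- mice, for a log2 fold change of -2.27 (standard error, SE, 0.06; edgeR quasi-likelihood test, adjusted p = 1.18e-06). The reads are summed over the gene, so they do not tell which part of it the remaining transcripts hold. A gene is said below to have risen or fallen when its Benjamini-Hochberg adjusted p over the 16924 genes tested was under 0.05, whatever the size of the change. Of all tested genes 31.4% did so, 20.2% lower and 11.2% higher in Trf2-/- mice. Lower genes were 64.4% of these, and 38.7% with library size in place of TMM.

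The family did not move as 1 block. All 9 genes passed the filter on low counts. Of these, 1 fell (Stat4), 3 rose (Stat5b, Stat6 and Jak2), and 5 did not pass the test (Stat2, Stat3, Stat5a, Jak1 and Tyk2). The 4 genes past the threshold are 44.4% of the 9, against 31.4% of all tested genes, so with 9 genes the share is no result about them. Only Stat4 changed by 2-fold or more, and of all tested genes 4.30% fell and 0.609% rose by that much. For 5 of the 9 genes (55.6%) WT and Trf2-/- mice had separate CPM ranges, and the same held for 49.2% of all tested genes. The median log2 fold change was 0.12 for the 9 genes and 0.04 for all tested genes.

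**Figure D1:**
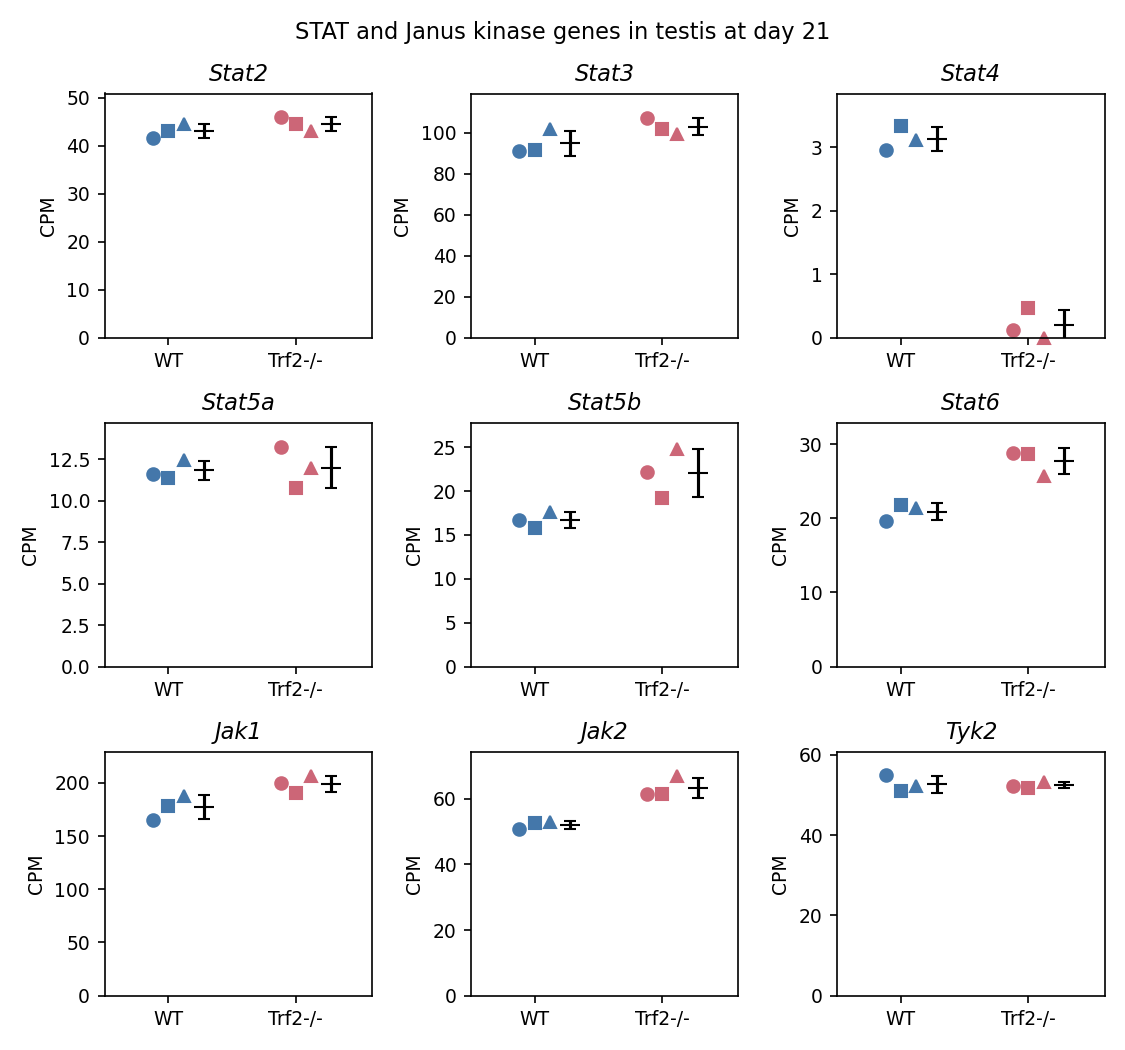
Level of each of the 9 genes in CPM (vertical axes, each starting at 0) in WT (blue) and Trf2-/- testis (red), with mice 1, 2 and 3 of each genotype as circle, square and triangle and the mean ± SD beside them. Stat4 lies between 2.96 and 3.33 CPM in WT and at or below 0.472 CPM in Trf2-/- mice, while Stat2, Stat3, Stat5a and Tyk2 overlap between the genotypes.

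Stat4 was the gene with the largest difference of the 9. On the NCBIM37 annotation it covers chr1:52043992-52164032 on the plus strand and has 2 protein-coding transcripts, whose starts lie 21096 bases apart at the 5′ end of the gene. The promoter sequences of both starts are shown because Stat4 alone of the 9 genes lost most of its reads. Each holds the 250 bases before the transcription start and the first 30 bases from it, 280 bases in all, at chr1:51986898-51987177 and chr1:52007990-52008269 on the plus strand of GRCm38.p6 (RefSeq), a later build than that of the counts. Capitals mark the 5 letters CCAAT, here read on the opposite strand as ATTGG, and TGACG, the core shared by the elements that CREB and CREM bind.

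Stat4 upstream start: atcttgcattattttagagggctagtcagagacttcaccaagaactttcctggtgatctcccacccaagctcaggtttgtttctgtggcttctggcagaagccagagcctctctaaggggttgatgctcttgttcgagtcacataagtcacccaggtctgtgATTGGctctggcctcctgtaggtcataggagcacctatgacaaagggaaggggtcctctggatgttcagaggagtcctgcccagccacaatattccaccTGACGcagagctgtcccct
Stat4 downstream start: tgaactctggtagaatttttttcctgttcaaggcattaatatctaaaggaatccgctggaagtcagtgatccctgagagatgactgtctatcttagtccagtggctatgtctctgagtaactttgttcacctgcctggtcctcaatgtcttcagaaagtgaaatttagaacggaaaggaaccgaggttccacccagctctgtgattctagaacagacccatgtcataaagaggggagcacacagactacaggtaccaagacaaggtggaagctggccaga

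The first window held 1 TGACG, which starts 11 bases after the start, and 1 CCAAT, 88 bases before it, and the second window held neither. Windows of 300 bases (250 before and 50 after the start) were read on both strands for the 9 genes and for all 32851 RefSeq windows, of which 20.81% held TGACG and 37.41% held CCAAT. The full element TGACGTCA, in which TGACG lies, was found in 1.79% of all windows and, within the family, only in that of Jak1, starting 101 bases before its start. Neither TATAAA, the core of the TATA box found in 13.62% of all windows, nor TTCNNNGAA, the palindrome bound by STAT dimers and found in 8.30%, occurred in a window of the 9 genes.

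Both Stat4 windows were poor in CpG dinucleotides, with 2 and 4 in 300 bases, against a median of 7 over all windows. In all windows 31.4% held at most 3 and 38.0% at most 4, so low CpG content is common among mouse promoters. The windows of the kinases held 29 (Jak1), 44 (Jak2) and 23 (Tyk2), and those of Stat2 and Stat3 held 22 and 15. Stat6 had 8, Stat5a had 5 and 27 at its 2 starts, and Stat5b had 7 and 50. Among the windows of the 9 genes the 2 of Stat4 held the fewest, and 1 window of Stat5a (5) and 1 of Stat5b (7) came next. These counts are a description of the windows, and which start the testis uses was not measured.

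Stat4 had 85, 87 and 65 reads in the WT mice, or 2.96, 3.33 and 3.12 CPM. In the Trf2-/- mice it had 3, 11 and 0 reads, or 0.119, 0.472 and 0 CPM, and in the mouse without a read the depth allows up to 0.190 CPM. The genotypes did not overlap, and Trf2-/- mouse 2 held most of the reads that were left. The mean of the Trf2-/- mice was 6.28% of that in WT (3.14 ± 0.186 against 0.197 ± 0.245 CPM, SD, n = 3 mice each). The log2 fold change was -3.83 (SE 0.48, 95% interval -4.92 to -2.74, adjusted p = 0.000808), and 30 of the 16924 tested genes had a lower one. Without Trf2-/- mouse 2 the fitted value was -5.34, and the mice that were left, with 3 and 0 reads, are at the limit of the depth, so its size rests on 14 reads in all. Stat4 had few reads to begin with. In WT 23.8% of the tested genes had a lower mean CPM, a scale that does not correct for gene length.

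Whole-testis RNA cannot show in which cells the Stat4 reads arose. In bulk RNA, fewer cells of a type and less RNA per cell cannot be told apart. Summed markers of round spermatids, the first haploid cells, were lower in the Trf2-/- mice. Their 14 genes summed to 124.3, 125.2 and 134.9 CPM in WT and to 69.0, 74.3 and 44.0 CPM in Trf2-/- mice, and none was at 0 in all mice. As a share of the WT mean the sums of the Trf2-/- mice were 53.9%, 58.0% and 34.3%, and Stat4 was at 3.79%, 15.0% and 0%. Mouse 2 was highest and mouse 3 lowest in both. For Stat4 the places of mice 1 and 3 rest on 3 and 0 reads and are not resolved at this depth.

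Where 20.2% of all tested genes fell, 10 of the 12 round spermatid markers tested did so and none rose (median log2 fold change -1.67). Those with the highest mean CPM over all 6 mice included Acr, the acrosomal protease acrosin (56.3 to 31.0 CPM, log2 fold change -0.85, adjusted p = 0.00191), and Tekt4, a tektin of the sperm flagellum (48.2 to 20.7 CPM, -1.19, adjusted p = 0.00439). Spaca1, an acrosomal membrane protein, came next by that mean and did not pass the test (7.13 and 6.09 CPM, adjusted p = 0.217). Tssk1, a kinase of spermatids with a higher WT level than Spaca1 and named after its values were seen, fell from 7.35 to 2.75 CPM (-1.41, adjusted p = 0.000425). Markers with fewer reads differed among themselves, and those given here were chosen after their values were seen. Tssk2 and Tssk3, of the same family as Tssk1, fell by 2.49 and 1.76 on the log2 scale, less than Stat4. Others had counts much like those of Stat4, and 2 of them follow. Acrv1, an acrosomal protein, had 33, 41 and 24 reads in WT and 1, 3 and 0 in Trf2-/- mice. Catsper4, a subunit of the sperm calcium channel, had 20, 43 and 24 reads in WT and 2, 2 and 0 in Trf2-/- mice. The part of the spermatid markers in the difference of Stat4 was not tested.

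Pachytene spermatocyte markers, of the meiotic stage before spermatids, lay between them and the other lists. Of 10 tested, 7 fell and 2 rose, against 20.2% and 11.2% of all tested genes. The median log2 fold change of these markers was -0.36. Their summed level in the Trf2-/- mice was 82.7%, 83.7% and 74.1% of the WT mean. Those with the highest mean CPM over all 6 mice, a scale that favours long transcripts, were Ldhc, the germ cell lactate dehydrogenase (2279 and 1407 CPM, WT first), Hspa2, a chaperone of spermatocytes (1690 and 1500 CPM), and Sycp2, of the synaptonemal complex (1286 and 1197 CPM). The 2 that rose, named after their values were seen, were Sycp1 and Sycp3, also of that complex, with log2 fold changes of 0.29 and 0.24 (adjusted p = 0.00602 and 0.00426).

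T and NK cells, the classical site of Stat4, had few reads in most of their markers. Of their 13 markers only Lck, a tyrosine kinase, and Cd4, a T cell coreceptor, had enough reads to be tested, and neither passed (81, 96 and 60 reads of Lck and 62, 40 and 35 of Cd4 in WT, 105, 84 and 44 and 82, 28 and 29 in Trf2-/- mice). Cd3g, Cd8a, Cd5, Klrb1c and Gzma had no read in any WT mouse. The marker with the next highest mean CPM, Cd247, a chain of the T cell receptor complex, had 5, 5 and 3 reads in WT and 7, 0 and 3 in Trf2-/- mice. The summed level was 4.80 to 5.75 CPM in WT and 5.06 to 8.85 CPM in Trf2-/- mice. That sum is made mostly of Lck and Cd4 reads, and the part of T and NK cells in the difference of Stat4 was not tested.

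**Figure D2:**
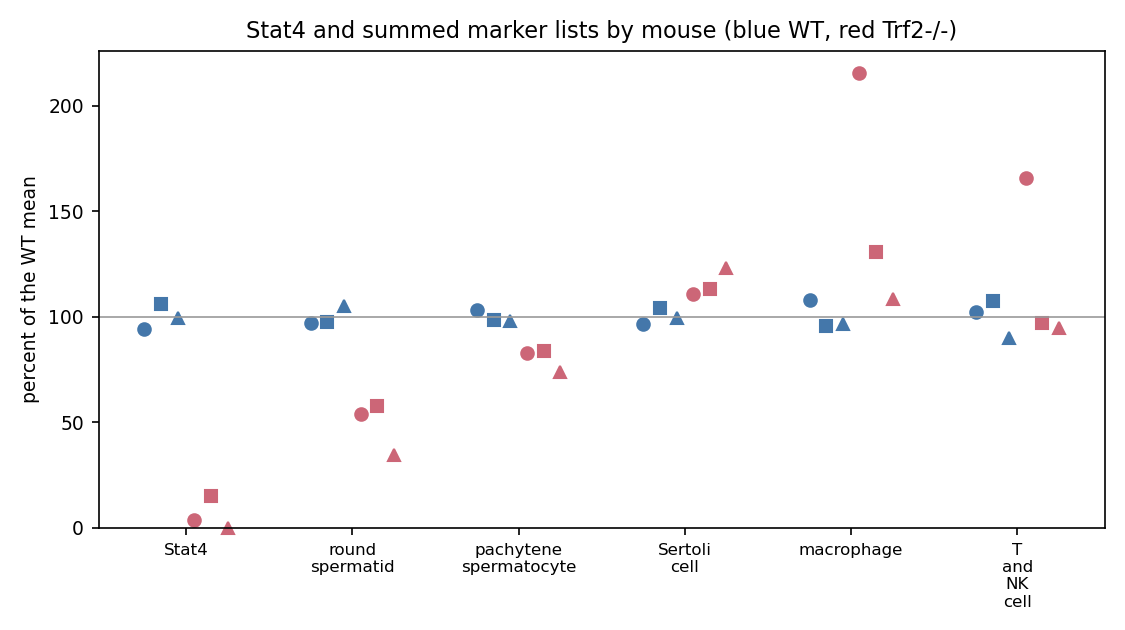
Stat4 and the summed CPM of 5 marker lists in each mouse as percent of the mean of the 3 WT mice (vertical axis), with WT in blue, Trf2-/- in red, and mice 1, 2 and 3 as circle, square and triangle. In the Trf2-/- mice Stat4 lies at 0 to 15.0% of WT and the round spermatid markers at 34.3 to 58.0%, while Sertoli cell and macrophage markers lie above 100%.

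The genes whose log2 CPM followed Stat4 most closely over the 6 mice were named by their Pearson correlation, as a description. They were Ubl7 (r = 0.99956), 1300014I06Rik (0.99921), Ppp1r35 (0.99906), Eif2b4 (0.99901) and Fam170b (0.99879). All 5 fell, and a high r over 3 low and 3 high mice says mainly that the WT mice are alike. It also reflects Trf2-/- mice in the order 2, 1, 3, where mice 1 and 3 had 3 and 0 reads of Stat4. Fam170b, a gene of the acrosome, was nearest in level and size of change, with 55, 51 and 37 reads in WT and 2, 9 and 0 in Trf2-/- mice and a log2 fold change of -3.43 (SE 0.52, adjusted p = 0.00162). Ubl7, a ubiquitin-like protein, fell much less, by 0.64 on the log2 scale (adjusted p = 0.00145).

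Upstream of Stat4, Gm8420 lies 45887 bases away and did not pass the test (log2 fold change 0.31, adjusted p = 0.234). Gm3940, annotated within Stat4, had too few reads to be tested. No stretch of 50 bases, the length of the reads, of a Stat4 transcript was found in the transcript of another protein-coding gene, so its reads can be told from those of its relatives.

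The genes upstream of Stat4 in T cells were near the limit of the depth, and are given because of that place in the pathway, not by their values. Il12a and Il12b, which encode the chains of interleukin Il12, had 4, 5 and 3 and 6, 1 and 4 reads in WT and 2, 0 and 0 and 3, 4 and 0 in Trf2-/- mice. Il12rb2, the receptor chain that binds Stat4, had 5, 3 and 4 reads in WT and 2, 7 and 5 in Trf2-/- mice. Il12rb1, the other chain, had 17, 15 and 5 reads in WT and 7, 8 and 8 in Trf2-/- mice and did not pass the test (log2 fold change -0.42, adjusted p = 0.474). Il12a, Il12b and Il12rb2 had too few reads to be tested. The CPM ranges of WT and Trf2-/- mice were separate for Il12a, with at most 5 reads, and overlapped for Il12b, Il12rb1 and Il12rb2.

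Stat5b and Stat6 were the STAT genes that rose. Stat6, which acts downstream of the receptors of Il4 and Il13, was at 19.6, 21.8 and 21.4 CPM in WT and at 28.8, 28.6 and 25.7 CPM in Trf2-/- mice. Every Trf2-/- mouse was above every WT mouse, and the mean went from 20.9 ± 1.16 to 27.7 ± 1.72 CPM (SD, n = 3 mice each). The log2 fold change was 0.41 (SE 0.08, 95% interval 0.24 to 0.58, adjusted p = 0.00395). Stat6 lies at chr10:127080042-127098013 on the plus strand of NCBIM37, and shares 40 exonic bases with Nab2, a transcriptional corepressor, which did not pass the test (log2 fold change 0.03, adjusted p = 0.857). Lrp1, a lipoprotein receptor on its other side, rose as well (0.25, adjusted p = 0.0129).

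Stat5b, a mediator of growth hormone and prolactin signals, was at 16.7, 15.8 and 17.6 CPM in WT and at 22.2, 19.3 and 24.8 CPM in Trf2-/- mice. The genotypes did not overlap, with means of 16.7 ± 0.894 and 22.1 ± 2.76 CPM (SD, n = 3 mice each) and the wider spread in Trf2-/- mice. The log2 fold change was 0.40 (SE 0.10, 95% interval 0.17 to 0.63, adjusted p = 0.0172). This call depended on single WT mice, since the adjusted p was 0.0606 without WT mouse 1 (log2 fold change 0.40) and 0.0751 without WT mouse 2 (0.36).

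Stat5a, its near-identical neighbour, did not follow it. Stat5a was at 11.6, 11.4 and 12.5 CPM in WT and at 13.3, 10.8 and 11.9 CPM in Trf2-/- mice, so that the genotypes overlapped. The log2 fold change was 0.02 (SE 0.11, 95% interval -0.22 to 0.26, adjusted p = 0.893), and it changed sign to -0.0077 without WT mouse 2 and to -0.076 without Trf2-/- mouse 1. The ratio of the pair within each library needs no scaling between libraries. Per kb of gene length it was 0.542, 0.558 and 0.55 Stat5a for each Stat5b in WT, and 0.464, 0.434 and 0.374 in Trf2-/- mice.

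All 3 Trf2-/- mice were thus below all 3 WT mice in this ratio. On the log2 scale of counts the mean was -0.50 ± 0.0223 in WT and -0.88 ± 0.158 in Trf2-/- mice (SD, n = 3 mice each), a difference of -0.38. An exact two-sided permutation test gave p = 0.1, which is the smallest that 3 mice against 3 allow, so the difference cannot pass 0.05 in this design.

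**Figure D3:**
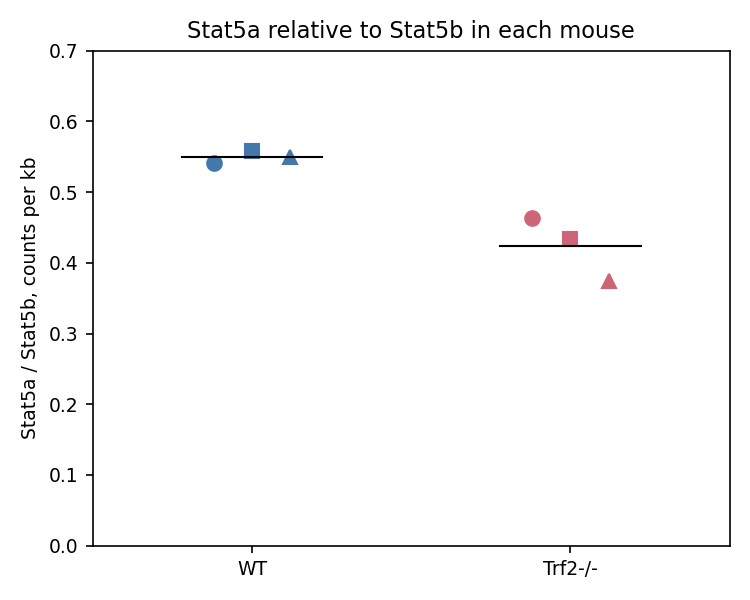
Ratio of Stat5a to Stat5b counts per kb of gene length (vertical axis, from 0) in each mouse, with WT in blue, Trf2-/- in red, mice 1, 2 and 3 as circle, square and triangle, and a line at the mean of each genotype. The WT mice lie between 0.542 and 0.558 and the Trf2-/- mice between 0.374 and 0.464.

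The 2 genes lie back to back on chromosome 11, Stat5b at chr11:100642045-100712038 on the minus strand and Stat5a at chr11:100720665-100746483 on the plus strand of NCBIM37, with 8627 bases between them. Their protein-coding transcripts share an identical run of 324 bases, and 15.21% of the 50-base stretches of Stat5a and 11.08% of those of Stat5b also occur in another protein-coding gene. How the counting treated a read that matches both genes is not given in the sources used here, so both levels carry that uncertainty. The 3′ end of Stat5a also overlaps that of Stat3 on the opposite strand by 72 exonic bases, which touches 0.36% of the 50-base stretches of Stat3.

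Stat2 and Stat3 had the highest levels of the 6 STAT genes, per kb too, and did not pass the test. Stat3, the effector of the Il6 family of cytokines, was at 91.3, 91.5 and 101.8 CPM in WT and at 107.5, 101.8 and 99.4 CPM in Trf2-/- mice. Its genotypes overlapped, and the log2 fold change was 0.12 (95% interval -0.01 to 0.25, adjusted p = 0.154). Stat2, which acts with Irf9 in the type I interferon response, was at 41.6, 43.1 and 44.5 CPM in WT and at 46.0, 44.5 and 43.1 CPM in Trf2-/- mice. It overlapped too, with a log2 fold change of 0.05 (95% interval -0.08 to 0.18, adjusted p = 0.519). The intervals leave room for a rise of Stat3 by up to 0.25 and of Stat2 by up to 0.18 on the log2 scale.

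Jak2 was the Janus kinase that rose. This kinase, used by the receptors of growth hormone, prolactin and erythropoietin and by that of interferon gamma, was at 50.7, 52.6 and 52.9 CPM in WT and at 61.5, 61.4 and 66.8 CPM in Trf2-/- mice. The genotypes did not overlap, and the means were 52.1 ± 1.19 and 63.2 ± 3.12 CPM (SD, n = 3 mice each). The log2 fold change was 0.28 (SE 0.06, 95% interval 0.15 to 0.41, adjusted p = 0.00592). Jak2 covers chr19:29326318-29387570 on the plus strand of NCBIM37. Its neighbour Insl6, an insulin-like peptide of germ cells 8267 bases further on, went the other way and fell by 1.23 on the log2 scale (SE 0.17, adjusted p = 0.0012).

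Jak1, which serves most cytokine receptors, was at 165, 178 and 188 CPM in WT and at 200, 191 and 206 CPM in Trf2-/- mice. The genotypes did not overlap, but the log2 fold change of 0.17 (SE 0.06, 95% interval 0.04 to 0.30) had an adjusted p of 0.0522 and did not pass the test. It did so with library size in place of TMM (adjusted p = 0.00877), with no filter beyond 1 count (0.0429) and without WT mouse 3 (0.0416). Tyk2, which pairs with Jak1 or Jak2 at the receptors of type I interferons and of Il12, was at 55.1, 50.9 and 52.2 CPM in WT and at 52.3, 51.8 and 53.2 CPM in Trf2-/- mice. Its genotypes overlapped, with a log2 fold change of -0.01 (95% interval -0.13 to 0.11, adjusted p = 0.912), and the sign changed with library size (0.086) and without WT mouse 1 (0.022). Differences beyond 0.13 in size on the log2 scale thus lie outside the interval of Tyk2.

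**Figure D4:**
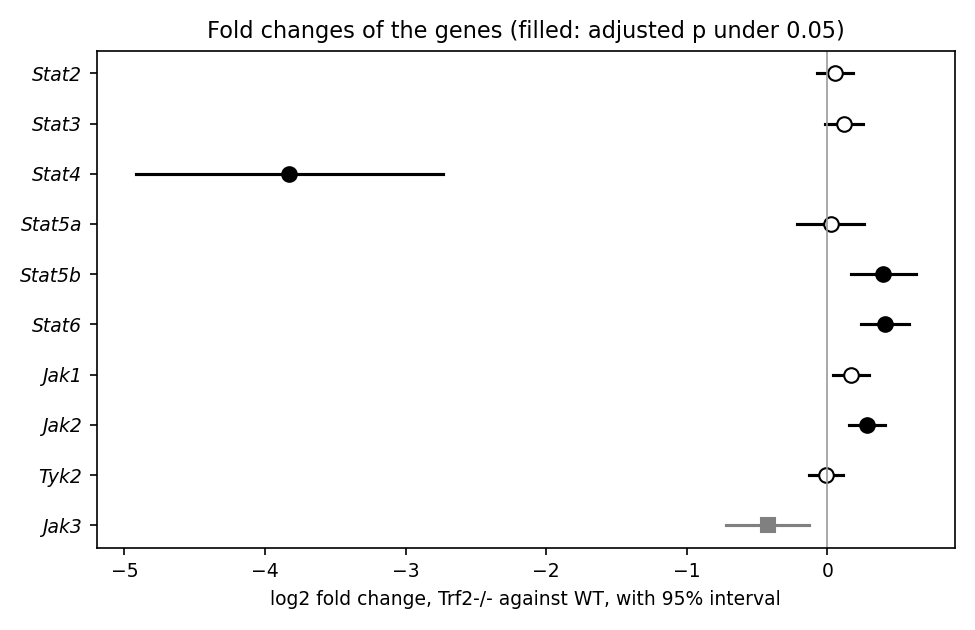
Log2 fold change of Trf2-/- against WT testis (horizontal axis) with its 95% interval for the 9 genes (black circles) and for Jak3 (grey square), filled where the adjusted p is under 0.05. Stat4 stands at -3.83 and the other 9 genes lie between -0.43 and 0.41.

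Jak3, the partner of the common gamma chain in lymphocytes, was at 7.70, 6.93 and 7.15 CPM in WT and at 5.87, 5.62 and 4.61 CPM in Trf2-/- mice. Its log2 fold change was -0.43 (SE 0.13, adjusted p = 0.0354), but the call was lost under 8 of 12 alternatives, with adjusted p from 0.0367 to 0.116 over the 12. Among them were the DESeq2 Wald test (0.0631), library size (0.0647) and the replicate block (0.0541). Moreover, 11.01% of its 50-base stretches lie in transcripts of other genes, mainly the overlapping Leydig cell gene Insl3 on the same strand, so its value is uncertain.

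Levels of different genes can be set side by side only per kb of gene length. In WT testis the order was Jak1 (24.5 ± 1.55 CPM per kb), Stat3 (15.0 ± 0.947), Tyk2 (11.4 ± 0.463), Jak2 (10.4 ± 0.236), Stat2 (9.78 ± 0.335), Stat6 (5.54 ± 0.308), Stat5b (3.02 ± 0.162), Stat5a (1.66 ± 0.0804) and Stat4 (0.997 ± 0.0591), each with SD and n = 3 mice. Only Jak2 and Stat2 overlapped among neighbours in this order. In Trf2-/- testis the order was the same except that Jak2 (12.6 ± 0.620 CPM per kb) stood above Tyk2 (11.4 ± 0.158), and no neighbours overlapped. Stat4 was lowest in both, at 0.0626 ± 0.0780 CPM per kb in Trf2-/- mice.

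The fall of Stat4 did not lower the amount of STAT transcript as a whole. The 6 STAT genes summed to 34.7, 35.6 and 37.8 CPM per kb in WT and to 41.0, 38.9 and 38.5 in Trf2-/- mice, and Stat4 was 2.62 to 2.98% of the sum in WT and at most 0.385% in Trf2-/- mice. Stat3 made up 40.8 to 42.6% in WT and 40.9 to 41.5% in Trf2-/- mice. The 3 Janus kinases summed to 44.9, 46.1 and 47.8 CPM per kb in WT and to 51.2, 49.8 and 53.3 in Trf2-/- mice. Both sums were above the WT range in every Trf2-/- mouse, without a test.

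Some markers of somatic cells rose too, and their part in the differences of the STAT and Janus kinase genes was not tested. For scale, 11.2% of all tested genes rose. Of 9 Sertoli cell markers tested 4 rose, none fell and 5 did not pass the test. Their sum was 1644, 1771 and 1693 CPM in WT and 1887, 1927 and 2100 CPM in Trf2-/- mice. Clu, the secreted chaperone clusterin, rose by 0.22 on the log2 scale (adjusted p = 0.026), and Cldn11, of the Sertoli cell tight junction, by 0.19 (adjusted p = 0.0158). Inha, the inhibin alpha subunit, was at 163 and 178 CPM.

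Of 10 macrophage markers 5 rose, none fell and 5 did not pass the test. Their sum was 220, 196 and 197 CPM in WT and 440, 267 and 221 CPM in Trf2-/- mice. Trf2-/- mouse 1 thus had the highest sum, and each of the 10 markers was highest in it. Lyz2, a lysozyme, was at 103.6 CPM there against 37.3 and 37.9 CPM in the other Trf2-/- mice. Csf1r, the receptor that macrophages need, rose as well (26.7 to 39.8 CPM, adjusted p = 0.0168), while the mannose receptor Mrc1 was at 80.1 to 92.5 CPM in WT and at 71.8 to 121.3 CPM in Trf2-/- mice. Among Trf2-/- mice, Stat5b and Jak2 were highest in mouse 3 and Stat6 was at 28.8 and 28.6 CPM in mice 1 and 2. All 3 genes, Stat6, Jak2 and Stat5b, also rose when Trf2-/- mouse 1 was left out (adjusted p = 0.0235, 0.0149 and 0.0429). The macrophage sums of Trf2-/- mice 2 and 3 were still 130.6% and 108.4% of the WT mean. The part of macrophages in these rises was not tested.

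Of 7 Leydig cell markers 2 rose and of 10 spermatogonia markers 1 rose, and none of either list fell. The summed Leydig cell markers ran from 190 to 366 CPM in WT and from 199 to 335.5 CPM in Trf2-/- mice, and those of spermatogonia from 322 to 349 and from 335 to 433 CPM. Those with the highest mean CPM over all 6 mice were Hsd3b1, Cyp11a1 and Star, of steroid synthesis, and Uchl1, Dmrt1 and Id4, of spermatogonia. No marker of any list was at 0 in all mice.

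Beyond the family, 170 genes of JAK-STAT signalling were sorted by role into 6 lists, and 161 of them were in the table and 126 tested. Of these, 10 fell (7.94%) and 23 rose (18.3%), against 20.2% and 11.2% of all tested genes, and 93 did not pass the test. Their median log2 fold change was 0.18. By list, 23.3% of tested receptors, 33.3% of negative regulators and 32.1% of adaptors and partners passed, against 31.4% of all tested genes. For STAT targets it was 36%, for interferon targets 6.67% and for cytokine ligands 0%. The count of genes that rose was unsteady, from 7 without WT mouse 2 to 38 without Trf2-/- mouse 3, and it was 44 with library size in place of TMM. It was 9 without WT mouse 1, 11 without WT mouse 3 and 13 without Trf2-/- mouse 1.

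**Figure D5:**
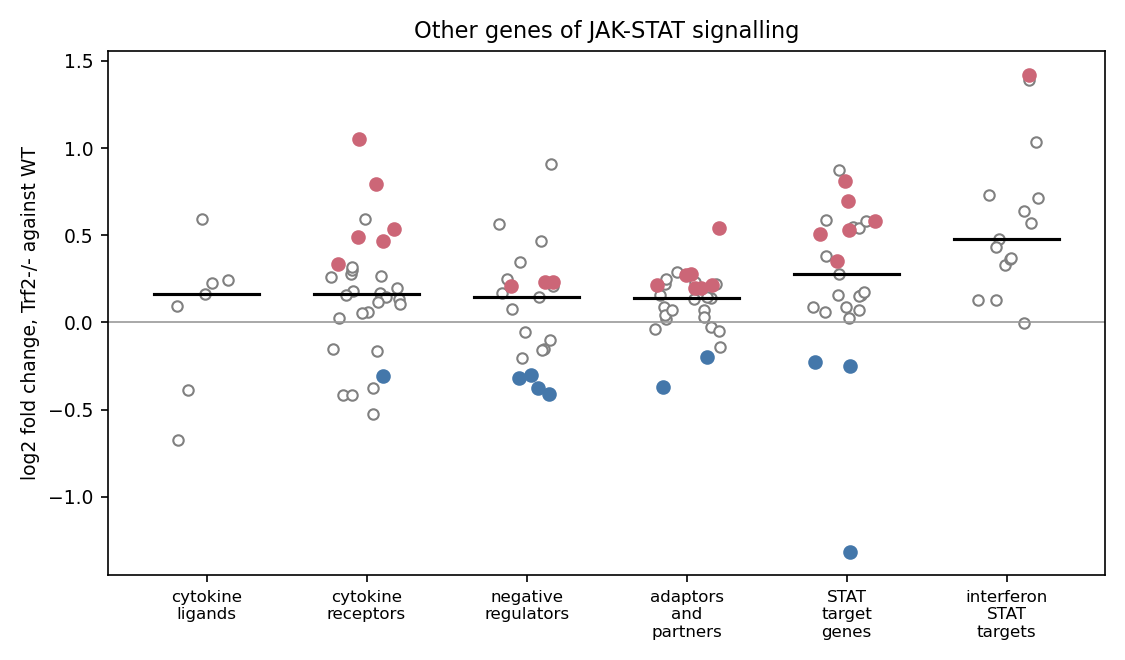
Log2 fold change of Trf2-/- against WT testis (vertical axis) for each tested gene of the 6 pathway lists, red where it rose, blue where it fell, open where it did not pass the test, with a bar at the list's median and points spread sideways for legibility. The medians lie between 0.14 for adaptors and partners and 0.48 for interferon targets, and the gene with the lowest value is Gata3 at -1.31.

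Cytokine ligands were scarce. Of 32 genes listed 25 were in the table and 7 had enough reads to be tested, of which none passed the test, and their summed level was 11.6 to 13.2 CPM in WT and 11.3 to 13.7 CPM in Trf2-/- mice. Ctf1, cardiotrophin, was at 2.93, 3.33 and 2.64 CPM in WT and at 2.26, 2.19 and 2.40 CPM in Trf2-/- mice (log2 fold change -0.38, adjusted p = 0.108). Il23a, Il21 and Clcf1, all ligands of Janus kinase receptors, had adjusted p of 0.165, 0.368 and 0.754.

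Receptors were more abundant, and of 30 tested 6 rose, 1 fell and 23 did not pass the test. The 3 with the smallest adjusted p all rose. Il6st, the signalling chain shared by the receptors of the Il6 family, was at 90.8, 98.6 and 102.5 CPM in WT and at 126.0, 119.0 and 122.6 CPM in Trf2-/- mice (log2 fold change 0.33, SE 0.06, adjusted p = 0.00246). Osmr, its partner for oncostatin M, went from 4.92 ± 0.445 to 8.50 ± 1.38 CPM (log2 fold change 0.80, adjusted p = 0.00433), and Il15ra, which presents Il15, from 6.19 ± 0.211 to 8.98 ± 1.28 CPM (0.53, adjusted p = 0.0150).

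The other receptors that rose were Il6ra, Ghr and Csf2rb, with log2 fold changes of 0.49, 0.47 and 1.05, and the one that fell was Crlf2, a chain of the Tslp receptor (-0.31, adjusted p = 0.0252). These 4 are named for having passed the test, after their values were seen. Ifnar1, a chain of the type I interferon receptor with the highest level per kb of the list in WT, was at 90.0 ± 4.13 and 99.1 ± 8.56 CPM and did not pass the test (adjusted p = 0.157). The summed receptors were at 568 to 646 CPM in WT and at 668 to 734 CPM in Trf2-/- mice, without overlap.

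Among the negative regulators the summed level was lower in every Trf2-/- mouse, at 1411 to 1473 CPM in WT and 1265 to 1274 CPM in Trf2-/- mice. Of 21 genes 4 fell, 3 rose and 14 did not pass the test, and the median log2 fold change was 0.14, of the opposite sign to the change of the sum, which is carried by a few abundant genes. Pias2, a SUMO ligase that binds STATs and is abundant in testis, was at 344, 325 and 324 CPM in WT and at 259, 260 and 247 CPM in Trf2-/- mice (log2 fold change -0.37, SE 0.05, adjusted p = 0.000748). Pias4, of the same family, fell from 79.9 ± 4.23 to 60.1 ± 2.31 CPM (-0.41, adjusted p = 0.00126). Socs7, a SOCS protein, fell from 281 ± 16.0 to 227 ± 2.69 CPM (-0.30, adjusted p = 0.00242).

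The other gene that fell was Sh2b3, an adaptor that restrains Jak2 (-0.32, adjusted p = 0.00252), and those that rose were the phosphatases Ptpn2 and Ptpn11 and the SOCS gene Socs6, with log2 fold changes of 0.23, 0.23 and 0.21. These 4 were named after their values were seen. Ptpn2 removes phosphate from Janus kinases and STATs, whereas Ptpn11 also acts positively in growth factor signalling. The list thus holds genes that went both ways.

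Of 28 adaptors and partners 7 rose, 2 fell and 19 did not pass the test. Kpna6, an importin alpha that carries cargo into the nucleus, was at 179, 173 and 170 CPM in WT and at 132, 139 and 132 CPM in Trf2-/- mice (log2 fold change -0.37, adjusted p = 0.000754). Mtor, the growth kinase that also phosphorylates STATs, fell from 605 ± 8.69 to 528 ± 20.3 CPM (-0.20, adjusted p = 0.0105). Xpo1, the exportin that returns STATs to the cytoplasm, rose from 475 ± 13.2 to 545 ± 18.9 CPM (0.20, adjusted p = 0.0111).

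Textbook targets of Stat3, Stat4, Stat5 and Stat6, each also controlled by other factors, were divided. Of 25 tested 6 rose, 3 fell and 16 did not pass the test. Vegfa, a vascular growth factor, was at 12.8, 12.2 and 14.0 CPM in WT and at 22.3, 18.1 and 17.5 CPM in Trf2-/- mice (log2 fold change 0.58, adjusted p = 0.00486). Igf1, the growth factor whose gene Stat5b drives in liver, was at 41.5, 42.0 and 53.3 CPM in WT and at 100.8, 70.8 and 66.6 CPM in Trf2-/- mice (0.81, SE 0.16, adjusted p = 0.00529). Both genes were highest in Trf2-/- mouse 1, the mouse with the highest summed macrophage markers, whose part in this was not tested.

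Bcl2l1, a survival gene, fell from 145 ± 3.90 to 122 ± 6.36 CPM (-0.25, adjusted p = 0.00677), whereas Mcl1, another survival gene and the most abundant target per kb in WT, was at 152 and 155 CPM (adjusted p = 0.681). Gata3, a T helper cell factor also active in other tissues, was the only gene of the 6 lists to fall by 2-fold or more, from 33, 32 and 37 reads in WT to 12, 13 and 10 in Trf2-/- mice (-1.31, adjusted p = 0.00778). It is named after its values were seen.

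Of 15 tested targets of the interferon responses 1 rose and none fell. Psmb8, a subunit of the immunoproteasome, was at 1.39, 1.69 and 1.58 CPM in WT and at 5.28, 4.67 and 2.28 CPM in Trf2-/- mice (log2 fold change 1.42, adjusted p = 0.00658). The list's median log2 fold change was 0.48, against 0.04 for all tested genes, but the reads were few and the mice uneven. Oas2, an antiviral enzyme, had 6, 12 and 12 reads in WT and 30, 33 and 7 in Trf2-/- mice (1.39, adjusted p = 0.0501). Gbp2, Bst2 and Ifi35, all induced by interferon, had adjusted p of 0.0512, 0.0776 and 0.444.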

How the data were processed

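Total RNA of testes from 3 WT and 3 Trf2-/- mice at day 21 was depleted of ribosomal RNA and sequenced as strand-specific, single-end 50-base reads. The authors aligned the reads to mm9 (NCBIM37) and deposited raw counts per gene for each mouse. The submitters' processing notes name CASAVA 1.8.2, TopHat2 2.0.10, Bowtie2 2.1.0, HTSeq 0.5.4p3 and DESeq2 1.0.19. The strand setting, the treatment of reads shared by paralogs and the annotation release are not given in the sources used here. Deposited normalized values were not used.

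From the counts, genes were filtered (filterByExpr), scaled (TMM) and compared with edgeR 4.0.16 (R 4.3.3; glmQLFit, glmQLFTest, Benjamini-Hochberg) over 16924 genes, which held 99.9% of the reads. CPM use TMM-scaled library sizes, and CPM per kb the deposited gene lengths. The standard error was derived from the fold change and its F statistic. Alternatives were DESeq2 1.42.0 and its size factors, library size, other filters, a block for the replicate number, leaving out single mice, and stricter thresholds. One more, counting Jak3, was added once the data had been seen. The scripts were tested on simulated counts. No pair of libraries of the same genotype was a duplicate, and pairs across genotypes were not checked.

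The study gives 3 biological replicates per genotype. The 9 genes, the pathway and marker lists and the tests were chosen with earlier results of these data known. Named were the 9 genes, Tbpl1, 3 genes of smallest adjusted p and 2 of highest WT level per kb in each pathway list, the 3 markers of highest mean CPM over all mice in each list, the 5 genes most correlated with Stat4 (log2 CPM, prior count 2) and annotated neighbours, in the text where a result turns on them. Genes in other lists named outside this rule are marked so. Of the table's genes 26200 had the same coordinates in the NCBIM37 annotation (GENCODE M1) used for positions. Promoter windows are from RefSeq (GRCm38.p6), where all 9 genes were found. Ciita, for which 2 entries share a name, was left out.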

Additional observations from a re-analysis of the deposited data

How the results depend on the processing

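Of 107 comparisons of the 9 genes with an alternative, 97 kept the direction and the side of the threshold, 2 lost the call (Stat5b without WT mouse 1 or 2), 4 gained one (Stat3 with library size, log2 fold change 0.21, adjusted p = 0.0185, and Jak1 under the 3 settings named above) and 4 changed sign, none of them called. These were Stat5a, -0.0077 without WT mouse 2 and -0.076 without Trf2-/- mouse 1, and Tyk2, 0.086 with library size and 0.022 without WT mouse 1. With a mouse left out Stat5a ran from -0.076 to 0.085 and Tyk2 from -0.035 to 0.022. Stat4 stayed called wherever it was tested, with log2 fold changes from -5.34 to -3.41 and adjusted p from 7.89e-12 to 0.00574.

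The count of the 9 genes that fell was 1, and 0 with at least 10 counts in every mouse, a filter that removes Stat4, and 2 with Jak3 counted, an alternative chosen after seeing the data. It was 1 without each mouse in turn. The count that rose was 3, and 5 with library size, 0 with a fold threshold of 2, and 2 to 4 with a mouse left out. Of the pathway genes 10 fell, 1 with a fold threshold of 2 and 8 to 10 with a mouse left out. The 23 that rose became 44 with library size, 2 with a fold threshold of 2, 5 at an adjusted p of 0.01, and 7 to 38 with a mouse left out. With library size the tested genes had a median log2 fold change of 0.131 in place of 0.037, and 38.7% of the genes past the threshold were lower in place of 64.4%. The cause was not tested.

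The labels do not say whether the replicate numbers pair the mice across genotypes. The correlation of the deviations of mice with the same number was -0.097, -0.031 and -0.102. With 3 mice per genotype these values cannot exclude a pairing. With the replicate block 4580 genes passed in place of 5312, no call of the 9 genes changed, and the Stat5a to Stat5b difference stayed at -0.38 with an exact permutation p of 0.25, the smallest that 3 pairs allow. With a mouse left out the difference was -0.45 to -0.29 and 3413 to 5235 genes passed. Depth limits Stat4 in Trf2-/- mice, the ligands and the T cell genes.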
